A study of Mus musculus with 16 samples.

Results

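The thrombospondin family comprises 5 secreted glycoproteins of the extracellular matrix, encoded in the mouse by Thbs1, Thbs2, Thbs3, Thbs4 and Comp (cartilage oligomeric matrix protein). A gene was counted as a member when the accession of an array probe mapped to its symbol. The array carried 6 such probes, 1 for each gene and a second for Thbs3, among 55681 probes that named 20141 genes. All 5 genes passed the filter on dim probes, which asked for at least 1 group with a signal well above background on each of its 4 arrays, and 14572 genes passed in all. Thbs4 was chosen by its measured rise after the immunotoxin, so its values after injury are given as a description with no test.

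Messenger RNA on ribosomes of mouse glomeruli was measured on 16 1-colour Agilent arrays, 4 in each of 4 groups, all from mice of C57BL/6N background. In Nphs1-RiboTag mice, Cre recombinase under the promoter of the nephrin gene Nphs1 puts an HA tag on the ribosomal protein Rpl22 in podocytes, the cells that wrap the capillaries of the glomerulus. Normal podocyte RNA came from polysomes of these mice pulled down with HA antibody, and normal glomerular RNA from polysomes of the same line that had not been precipitated. The day 4 and day 7 groups were podocyte RNA from Nphs1-RiboTag-NEP25 mice, whose podocytes also carry human CD25, taken 4 or 7 days after a single tail vein injection of LMB2, an immunotoxin against CD25, at 0.625 ng per g body weight. The series text gives the uninjured mice the tag alone, so the injured groups differ from them by NEP25 as well as by LMB2. The labels do not state whether each array is a separate animal, and p-values therefore measure the spread between these samples, which may be technical.

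All uninjured arrays were on 1 slide and all LMB2 arrays on another, scanned apart, so injury cannot be told apart from slide and scan. The podocyte and glomerular groups shared a slide, as did day 4 and day 7. No spot was saturated, and the share read as well above background ranged over the arrays from 49.3% to 57.5%. The 12 podocyte markers examined were above background on every array of all 4 groups. Their summed level, in multiples of the array's 75th percentile, was 2563.1 to 2741.5 in normal podocytes and 811.4 to 1061.6 in glomeruli, and the 13 endothelial markers summed to 62.7 to 114.9 and 1005.3 to 1254.6. After LMB2 the podocyte markers summed to 2048.1 to 2562.6 at day 4 and to 1582.6 to 1844.4 at day 7. In bulk samples, fewer cells of a type and less RNA per cell cannot be told apart.

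Thrombospondins act at the surface of cells, where they bind integrins, Cd47, Cd36, growth factors, proteases and collagens. Thbs1 and Thbs2 assemble as trimers with type 1 repeats, through which they restrain blood vessel growth, and Thbs1 can release TGF-beta from its latent complex. Thbs3, Thbs4 and Comp assemble as pentamers without these repeats and are best known from cartilage, tendon and muscle, and Thbs4 also acts inside the cell, where it binds the stress sensor Atf6 in the endoplasmic reticulum. In the kidney, Thbs1 is known from glomerular disease as a product of injured glomerular and tubular cells.

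The promoters are shown for the members that had a window, whatever their change after LMB2. Comp and Thbs1, which were called lower after LMB2, had none. RefSeq windows of GRCm38.p6 were matched for 3 of the 5 members, Thbs2, Thbs3 and Thbs4, and the 250 bases before each gene start are printed from 5′ to 3′ on the gene's strand. The windows are chr17:14694263-14694512 on the minus strand for Thbs2, chr3:89214930-89215179 on the plus strand for Thbs3 and chr13:92794819-92795068 on the minus strand for Thbs4. Capitals mark matches to the GC box of Sp1 (GGGCGG or CCGCCC) and to the core of the TEAD site (GGAATG or CATTCC).
Thbs2: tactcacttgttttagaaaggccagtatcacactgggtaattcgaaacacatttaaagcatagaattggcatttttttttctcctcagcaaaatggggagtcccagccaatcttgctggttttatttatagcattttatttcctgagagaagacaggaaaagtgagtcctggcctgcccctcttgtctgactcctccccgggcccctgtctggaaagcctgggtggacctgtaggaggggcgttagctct
Thbs3: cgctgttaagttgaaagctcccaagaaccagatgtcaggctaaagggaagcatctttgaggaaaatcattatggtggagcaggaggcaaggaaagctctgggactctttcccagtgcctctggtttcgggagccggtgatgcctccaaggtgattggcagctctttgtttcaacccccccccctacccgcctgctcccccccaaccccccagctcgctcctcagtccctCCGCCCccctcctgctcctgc
Thbs4: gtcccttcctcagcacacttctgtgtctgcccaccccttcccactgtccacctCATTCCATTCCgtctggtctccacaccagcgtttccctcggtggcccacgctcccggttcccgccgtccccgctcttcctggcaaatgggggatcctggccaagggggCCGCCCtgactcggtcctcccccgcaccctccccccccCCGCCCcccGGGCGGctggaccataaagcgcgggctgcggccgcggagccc
The Thbs4 window held 2 TEAD matches, which start 197 and 192 bases before the gene start and share 1 base, and 3 GC boxes that start 89, 51 and 42 bases before it. Thbs3 held 1 GC box, 21 bases before its start, and Thbs2 held neither. Of 32851 RefSeq windows of this length, 12.6% had a TEAD match and 32.7% a GC box. A TATA box (TATAAA or TTTATA) lay in the Thbs2 window, 126 bases before the start, and in 12.4% of all windows. No match to the AP-1 motif TGANTCA, the CRE motif TGACGTCA or the Egr motif GCGNGGGCG (or CGCCCNCGC) was in any of the 3 windows, against 6.7%, 1.5% and 4.7% of all windows. Both strands were searched, the motifs were chosen with the sequences in view, and a match is a description of letters rather than a bound site.

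Levels are log2 processed intensities from which the array's own 75th percentile was subtracted, so that 0 is the level of that percentile. They compare 1 probe across arrays and not 1 gene with another, since probes differ in brightness. Means are followed by the SD over 4 arrays, and differences by limma's standard error and the Benjamini-Hochberg adjusted p over all 14572 genes, with a call at 0.05.

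Thbs1, the member best known as a platelet and matrix protein and an activator of TGF-beta, was a podocyte-side transcript in the normal glomerulus. Its level on the normal podocyte arrays was 3.58, 3.26, 3.71 and 3.41. The normal glomerular arrays read 1.42, 1.35, 2.03 and 1.11. Every podocyte array was above every glomerular array, and podocyte RNA held 4.04-fold more (log2 difference 2.01 ± 0.16 SE, adjusted p = 4.9e-08). Markers of platelets and megakaryocytes were low in the same podocyte arrays: their summed level was 0.33 to 0.411 there and 1.87 to 4.58 in glomeruli, and 6 of the 10, among them Ppbp and Itga2b, were above background on no normal podocyte array. The part of these markers in the Thbs1 levels was not tested.

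After LMB2, Thbs1 was lower by day 7. The day 4 arrays read 3.20, 3.42, 3.12 and 3.10, overlapping the normal podocytes, and the difference of -0.28 ± 0.16 was not called (adjusted p = 0.20). By day 7 the arrays read 2.64, 2.75, 2.80 and 2.60, all below every normal and every day 4 podocyte array. Thbs1 fell 1.74-fold against normal (-0.80 ± 0.16, adjusted p = 0.00073). Of the 12 podocyte markers, 9 were called lower and 0 higher in the same comparison (median -0.92), and their part in the fall was not tested. Day 7 was also below day 4 (-0.52 ± 0.16, adjusted p = 0.025). That last call was lost without day 4 replicate 2 (-0.45, adjusted p = 0.0793), day 7 replicate 1 (-0.50, 0.0567) or day 7 replicate 4 (-0.48, 0.0591), and under quantile normalization (-0.44, 0.0536). In order of level, the 4 groups ran normal podocyte, day 4, day 7 and glomerular, and the first pair did not differ beyond their spread.

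Thbs2, the closest relative of Thbs1 and likewise an inhibitor of vessel growth, had the opposite distribution. The glomerular arrays read -0.56, -0.53, 0.42 and -0.25, all well above background. Normal podocytes read -4.56, -3.81, -3.56 and -4.21, and replicate 4 was not well above background. The groups did not overlap, and podocyte RNA held 14-fold less (-3.80 ± 0.52, adjusted p = 1e-05). With normexp background correction, an alternative that adds an offset of 50 to each intensity and so compresses dim probes, the difference was -2.0 or -1.89, depending on the scaling. Mesangial and smooth muscle markers were distributed in the same way, with a summed level of 210.7 to 310.9 in glomeruli and 33.1 to 47.7 in normal podocytes, and their part in the result was not tested.

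In injured podocytes Thbs2 was at the limit of the array. The day 4 arrays read -4.27, -5.91, -6.28 and -5.27, none well above background. Day 7 read -6.31, -5.23, -4.42 and -3.54, and only replicate 4 was well above background. Neither time was called against normal. At day 4 the probe was well above background on 3 of 4 normal arrays and on none after LMB2, with a measured difference of -1.40 ± 0.52 (adjusted p = 0.052). The groups overlapped, so no least fold is given. At day 7 the difference was -0.84 ± 0.52 (adjusted p = 0.18). The day 4 difference was -0.05 with normexp and the 75th percentile (adjusted p = 0.785) and -0.27 with normexp and quantile scaling (adjusted p = 0.151). It passed the threshold without day 4 replicate 1 (-1.79, adjusted p = 0.0183), and the day 7 difference without day 7 replicate 4 (-1.29, adjusted p = 0.037) while it turned to 0.15 with normexp and the 75th percentile. Day 7 minus day 4 was 0.56 ± 0.52 (adjusted p = 0.45).

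Thbs3, a pentameric member expressed in developing bone and cartilage, was dim in every group. Both probes map to the same accession, and the brighter one represents the gene. Normal podocytes read -4.51, -4.38, -4.06 and -3.69, and glomeruli -2.68, -2.07, -2.12 and -2.59. All glomerular arrays were above all podocyte arrays, with 3.47-fold less in podocyte RNA (-1.79 ± 0.32, adjusted p = 0.00011). The second probe gave -2.31 ± 0.25 (adjusted p = 1e-06), and normexp reduced the difference to -0.45 or -0.40.

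At day 4 the Thbs3 arrays read -4.05, -4.32, -2.66 and -4.22, and 2 of them were not well above background. Replicate 3 stood above the rest, and the difference from normal of 0.35 ± 0.32 (adjusted p = 0.42) became -0.03 without it. At day 7 the arrays read -2.77, -2.44, -3.03 and -3.09, each above all normal podocyte arrays. Thbs3 rose 2.51-fold at day 7 (1.33 ± 0.32, adjusted p = 0.0023), and the second probe rose by 1.76 ± 0.25 (adjusted p = 3.6e-05), while normexp gave 0.51 or 0.28. Day 7 against day 4 was 0.98 ± 0.32 (adjusted p = 0.028), with overlap through day 4 replicate 3. This call was lost without day 4 replicate 1, 2 or 4 (0.90, 0.81 and 0.84; adjusted p = 0.0668, 0.0926 and 0.0776), without day 7 replicate 1 or 2 (0.96 and 0.85; 0.0589 and 0.0827), with normexp (0.28 and 0.24) and in a fit of these 2 groups alone (0.98, adjusted p = 0.0764), whereas the second probe was called (1.18 ± 0.25, adjusted p = 0.003). In order of level, the Thbs3 groups ran glomerular, day 7, day 4 and normal podocyte. Glomerular and day 7 overlapped, as did day 4 and normal podocyte.

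Other cell types' markers were read beside the day 7 rise of Thbs3. The mesangial and smooth muscle markers summed to 956.9 to 1267.0 at day 7, of which Tagln, a smooth muscle actin-binding protein, made up 920.4 to 1235.6. Of the list's 11 genes, 5 were called higher and 0 lower at day 7 against normal (median 0.84), and 6 higher and 0 lower against day 4 (median 1.15). Against normal, Tagln was higher by 6.01 and Des, an intermediate filament protein, by 3.02. Cnn1 was higher by 2.78, Acta2 by 1.60, Fhl2 by 1.08, Ren1 by 0.84, Myh11 by 0.46 and Agtr1a by 0.12. The mesangial markers Itga8 and Gata3 differed from normal podocytes by -0.22 and -0.07, and Pdgfrb by -0.47. Of the 8 parietal epithelial markers, which mark the cells that line Bowman's capsule, 7 were called higher and 1 lower at day 7 against normal (median 1.36), and 5 higher and 1 lower against day 4 (median 1.19). Their summed level overlapped, at 11.7 to 24 on the day 7 arrays and 13.8 to 30.5 on the normal podocyte arrays. Of the 13 endothelial markers, 3 were called higher and 2 lower at day 7, and of the 11 leukocyte markers 3 higher and 1 lower. Their part in the result was not tested.

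Thbs4, which is induced in injured heart, muscle and tendon, was at or near background in the uninjured groups. The normal podocyte arrays read -7.20, -6.82, -6.41 and -6.35, and none was well above background. Normal glomeruli read -4.57, -5.84, -6.70 and -5.77, of which only replicate 1 was well above background. The groups overlapped, and the difference of -0.97 ± 0.44 was not called (adjusted p = 0.054). It passed the threshold without glomerular replicate 3 (-1.30, adjusted p = 0.0136) and when array medians were set to 0 (-1.05, adjusted p = 0.0429), and with normexp it was -0.06 or -0.18. Since the probe was above background on 1 of these 8 arrays, no fold is given.

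After LMB2 the same probe was bright on every array. At day 4 it read 4.59, 4.95, 5.71 and 6.57, and its processed intensity ran from 5731.2 to 24788.8 against 2.13 to 3.22 in normal podocytes. At day 7 it read 7.90, 7.71, 7.70 and 7.15, or 37749.5 to 51885.4 in intensity. All day 7 arrays were above all day 4 arrays, and the day 4 arrays spread more (SD 0.88) than those of day 7 (SD 0.32). Against normal podocytes, where only a background bound exists, Thbs4 was at least 1112.2-fold higher at day 4 and at least 4957.5-fold higher at day 7. These bounds set the injured mean against the lowest signal, among all probes, that counts as well above background on each normal array. That signal is not a detection limit of the Thbs4 probe, and the bounds hold for this scaling only. The measured means differed by 12.15 and 14.31 on the log2 scale, and by 7.49 or 7.38 and 9.67 or 9.50 with normexp. The normexp differences are smaller than the bounds. Day 7 was 4.46-fold above day 4 (2.16 ± 0.44 SE).

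Fibroblasts are a known source of Thbs4, and the 10 fibroblast markers summed to 438.5 to 591.7 in normal podocytes, 502.2 to 594.9 at day 4 and 466.0 to 592.6 at day 7. In normal glomeruli the sum was less, 298.3 to 395.4. Yet 5 of the 8 markers tested were called lower in podocyte than in glomerular RNA and 2 higher (median -1.87). The sum therefore need not follow the share of fibroblasts. Of the 8 that were tested, 1 was called higher and 1 lower at day 4 (median 0.05), and 1 higher and 0 lower at day 7 (median 0.16), the latter Col1a1, a chain of type I collagen, at 3.03 ± 0.31 (adjusted p = 1.7e-06). Dpt was above background on no array of any group, and Lum on none in normal podocytes, glomeruli or day 7. The part of these markers in the Thbs4 levels was not tested.

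**Figure D1:**
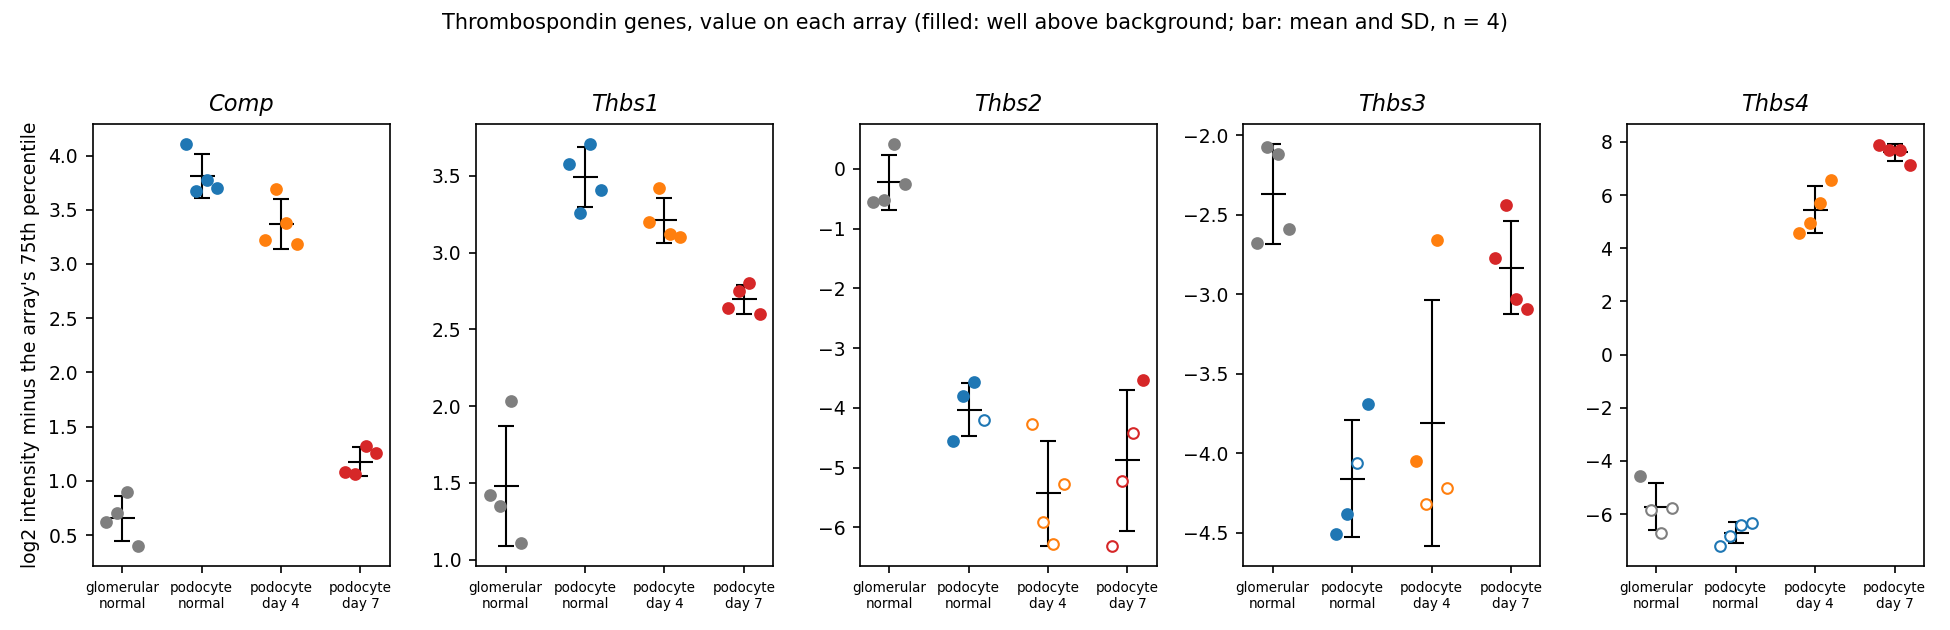
Level of each thrombospondin gene on each array (log2 intensity minus the array's 75th percentile, own axis per gene); filled points are well above background, open points are not, and bars give the mean and SD of 4 arrays. Comp and Thbs1 were highest in normal podocytes, Thbs2 and Thbs3 highest in glomeruli, and Thbs4 bright after LMB2 alone.

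Comp, the pentamer that links collagens in cartilage and tendon and a close relative of Thbs4, moved the other way after LMB2. Normal podocytes read 4.11, 3.67, 3.77 and 3.70, and glomeruli 0.62, 0.70, 0.90 and 0.40. The groups lay far apart, and podocyte RNA held 8.94-fold more Comp (3.16 ± 0.14, adjusted p = 3e-10). At day 4 the arrays read 3.22, 3.69, 3.38 and 3.18. Replicate 2 overlapped the normal arrays, and the mean was 1.36-fold lower (-0.45 ± 0.14, adjusted p = 0.023). That call was lost without normal podocyte replicate 1 (-0.35, adjusted p = 0.0768), day 4 replicate 1 (-0.40, 0.0632) or day 4 replicate 4 (-0.38, 0.0755), and when array medians were set to 0 (-0.37, 0.0503), quantile normalization (-0.32, 0.0585) or these groups alone (-0.45, 0.0555).

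By day 7 Comp approached its glomerular level. The arrays read 1.08, 1.06, 1.32 and 1.26, below every normal and day 4 podocyte array and above every glomerular one. Comp fell 6.22-fold against normal podocytes (-2.64 ± 0.14, adjusted p = 2.9e-09) and 4.56-fold against day 4 (-2.19 ± 0.14, adjusted p = 1.3e-07). Over the same arrays the podocyte markers were also lower: 9 of 12 were called lower at day 7, with a median of -0.92 and a range of -1.96 to 0.38, and their part in the result was not tested. Its groups ordered as normal podocyte, day 4, day 7 and glomerular, with overlap between the first pair.

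Set side by side, the family split by compartment. Of the 5 members, 2 were called higher in podocyte than in glomerular RNA (Comp and Thbs1) and 2 lower (Thbs2 and Thbs3). Among all genes 51.6% were called higher and 27.6% lower, 79.1% in all, so a call in this comparison was common. The same 4 had groups that did not overlap, as did 47.7% of genes in the higher and 25.3% in the lower direction. The median of all genes was 0.38, which became 0.25 with quantile normalization, and the 4 called members kept their direction under every scaling tried. With day 4, 1 of the 4 members tested was called (Comp, lower), beside 33.7% of all genes, 12.1% higher and 21.7% lower. When array medians were set to 0, 46.5% of the genes called at day 4 were higher, against 35.8% here. None of the 4 had groups that did not overlap at day 4 (11.7% of genes higher, 22.4% lower). With day 7, 3 of 4 were called (Comp and Thbs1 lower, Thbs3 higher), beside 58.3% of all genes, 22% higher and 36.3% lower, and the groups of all 3 did not overlap (18% of genes higher, 32.6% lower). Between day 7 and day 4, 3 of 4 were called (Comp and Thbs1 lower, Thbs3 higher), beside 32.6% of all genes, 14% higher and 18.6% lower, and the groups of Comp and Thbs1 did not overlap (13.4% of genes higher, 19.8% lower). These comparisons share arrays, and the median of all genes was -0.14 at both times and -0.04 between them.

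**Figure D2:**
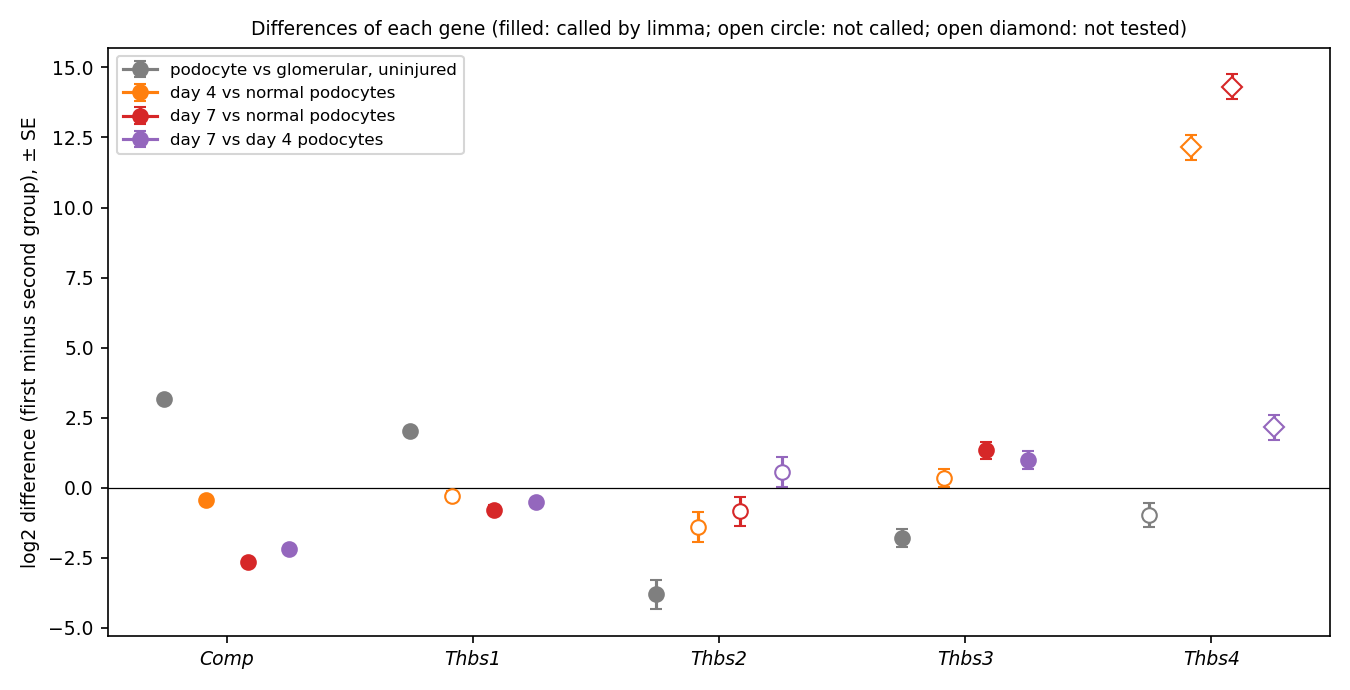
Log2 difference of each thrombospondin gene in 4 comparisons (first minus second group, bars show ± SE of the fit over 16 arrays); filled circles were called by limma, open circles were not, and open diamonds were not tested. The filled and open circles lay between -3.80 and 3.16. The diamonds of Thbs4 against normal podocytes are measured differences from arrays at background, on which its fold has a lower bound only.

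Receptors and binding partners of thrombospondins were read to see which of the family's contacts the podocyte ribosomes held. Of 20 genes listed, 19 passed the filter, and 7 were higher and 10 lower in podocyte than in glomerular RNA (median -0.58, against 0.38 for all genes). Over all genes, 51.6% were called higher and 27.6% lower in this comparison, and these shares stand beside the lists below as well. Cd36, a scavenger receptor for the type 1 repeats on endothelial cells, was lower, at -4.75 ± 0.28 (adjusted p = 2.5e-09). Itga4 and Itgb3, subunits of integrins that bind thrombospondins, were lower, at -3.94 ± 0.34 (adjusted p = 1e-07) and -3.81 ± 0.65 (adjusted p = 8.2e-05). Itgav, the alpha subunit that pairs with Itgb3, was instead higher in podocytes (2.05 ± 0.16, adjusted p = 3.1e-08), as was the chaperone and Thbs1 ligand calreticulin, Calr (1.1 ± 0.17, adjusted p = 3e-05). Cd47, the receptor of the carboxyl-terminal domain, was lower, at -0.53 ± 0.09 (adjusted p = 8.8e-05), and Cacna2d1, a calcium channel subunit that binds thrombospondins, by -2.48 ± 0.25 (adjusted p = 4.1e-07).

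After LMB2, 12.1% of all genes were called higher and 21.7% lower at day 4, and 22% and 36.3% at day 7. These shares also stand beside the lists that follow. Of the 19 receptors and partners, 0 rose at day 4 and 4 fell, near the share of all genes that fell (median -0.17, all genes -0.14). Among them were Calr (-0.66 ± 0.17, adjusted p = 0.0078), Cacna2d1 (-0.82 ± 0.25, adjusted p = 0.02) and Hrg, a plasma protein that masks the Cd36 site of thrombospondins (-1.11 ± 0.38, adjusted p = 0.036). Hrg was above background on 3 normal and 0 day 4 arrays, and differed by -0.01 with normexp and the 75th percentile. The Hrg and Cacna2d1 calls were lost under several alternatives. At day 7, 5 rose and 5 fell (median 0.33). Cd47 rose by 0.67 ± 0.09 (adjusted p = 2.3e-05) and Itgb1, the common beta subunit of matrix integrins, by 0.88 ± 0.18 (adjusted p = 0.00076). Sirpa, the other partner of Cd47, fell by 1.41 on the log2 scale (SE 0.20, adjusted p = 3.5e-05), and Calr by 0.83 (SE 0.17, adjusted p = 0.00071). Cacna2d1 was higher by 0.72 ± 0.25 (adjusted p = 0.021), a call lost under quantile normalization (0.60), normexp with quantile scaling (0.41) and without 3 single arrays. Hrg had a measured difference of -0.99 ± 0.38 (adjusted p = 0.037), above background on 3 normal and 0 day 7 arrays. That call was likewise lost under several alternatives, and the difference was 0.03 with normexp and the 75th percentile. Cd36, Itgav and Itgb3 were not called at either time: Cd36 differed by 0.17 and 0.45, Itgav by -0.21 and 0.18, and Itgb3 by -1.39 and 0.60. The second Itgav probe differed by 0.20 at day 4 and 0.54 at day 7, so the probes disagreed in sign at day 4 and in size at day 7.

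Latent TGF-beta is the growth factor complex that Thbs1 can open. All 16 genes of its list were tested, and in podocyte RNA 3 were higher and 10 lower than in glomeruli (median -1.07). The largest differences were in Tgfbi, a TGF-beta-induced matrix protein (-4.28 ± 0.36, adjusted p = 7e-08), Ltbp1, a latency-binding protein (-3.41 ± 0.21, adjusted p = 3.2e-09), and Itgb6, a subunit of an integrin that activates latent TGF-beta (-3.19 ± 0.28, adjusted p = 1.3e-07). Tgfb1 was lower, at -3.09 ± 0.12 (adjusted p = 2.3e-10). At day 4, 3 rose and 1 fell (median -0.09), with Ltbp2 at 1.75 ± 0.36 (adjusted p = 0.0022), Tgfb2 at 1.54 ± 0.29 (adjusted p = 0.0012) and Itgb6 at 1.01 ± 0.28 (adjusted p = 0.014). The Itgb6 call was lost without day 4 replicate 4 (0.84, adjusted p = 0.0501) and under normexp with quantile scaling (0.30). Tgfb1 was at -0.04 ± 0.12 (adjusted p = 0.82).

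At day 7, 7 genes of the TGF-beta list rose and 4 fell (median 0.15, all genes -0.14). The 3 ligands rose together: Tgfb3 by 4.80 ± 0.19 (adjusted p = 2.7e-10), Tgfb2 by 4.77 ± 0.29 (adjusted p = 1.2e-08) and Tgfb1 by 1.81 ± 0.12 (adjusted p = 3.5e-08). Ccn2, a matricellular target of TGF-beta, rose by 2.29 ± 0.33 (adjusted p = 3.8e-05). Thbs1 fell over the same interval, from a mean of 3.49 to 2.70.

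Other matricellular proteins, which like thrombospondins modulate cells without building the matrix, were partly dim here, and 12 of 20 passed the filter. In podocyte RNA 3 were higher and 9 lower (median -2.82, and -2.9 to -0.96 under 5 other scalings or background corrections). The lowest were Mgp, the matrix Gla protein (-4.10 ± 0.28, adjusted p = 1.1e-08), and the fibulins Fbln2 (-4.06 ± 0.31, adjusted p = 2.6e-08) and Fbln5 (-3.95 ± 0.36, adjusted p = 1.6e-07). At day 4, 1 rose and 1 fell (median 0.26): Ccn1, an integrin ligand of the CCN family, by 2.44 ± 0.38 (adjusted p = 0.00025), and Sparcl1, a relative of Sparc, by -0.81 ± 0.28 (adjusted p = 0.038), a call lost under several alternatives. At day 7, 7 rose and 1 fell (median 1.00, and 0.48 to 1.09 under the same 5 alternatives). Ccn1 rose by 4.50 ± 0.38 (adjusted p = 3e-07), Fbln5 by 2.67 ± 0.36 (adjusted p = 2.1e-05) and Ccn4, another CCN protein, by 2.61 ± 0.41 (adjusted p = 7.4e-05), the last above background on 1 of 4 normal arrays.

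Proteins outside the family that carry type 1 repeats include spondins, R-spondins and ADAMTS proteases. Of 37 listed, 35 had a probe and 26 passed the filter, with 7 higher and 11 lower in podocyte RNA (median -0.49). Adamts7, a protease known to degrade COMP, was measured on all glomerular and no podocyte arrays and was at least 7.77-fold lower in podocytes (adjusted p = 2.3e-10). Under alternatives its log2 difference was as small as -1.12, less than this bound. Thsd1, an endothelial adhesion protein, was lower, at -4.40 ± 0.28 (adjusted p = 5.3e-09), and Adamtsl2, a microfibril protein measured on 2 podocyte arrays, by -4.31 ± 0.28 (adjusted p = 5.3e-09). At day 4, 6 rose and 1 fell (median 0.12). Spon2, a spondin of innate immunity, rose by 2.90 ± 0.63 (adjusted p = 0.0029) and Cfp, the complement regulator properdin, by 2.11 ± 0.28 (adjusted p = 5.8e-05). Rspo2, an enhancer of Wnt signalling, was called higher as well (adjusted p = 0.0064) but was above background on 1 day 4 and 0 normal arrays.

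At day 7, 9 genes with type 1 repeats rose and 5 fell (median 0.59, and 0.06 to 0.69 under 5 other scalings or background corrections). Rspo2 was at least 4.70-fold higher (adjusted p = 4.9e-07) and Adamts7 at least 3.02-fold higher (adjusted p = 3.9e-09), both above background on all day 7 and no normal podocyte arrays. These bounds hold for the scaling used here only. Under alternatives the log2 differences were as small as 0.91 for Rspo2 and 0.54 for Adamts7, less than the bounds. Adamts4, which cleaves aggrecan, rose by 3.59 ± 0.53 (adjusted p = 4.9e-05). Comp, a substrate of Adamts7, fell over the same interval, and these are changes in ribosome-bound transcripts that do not measure protein.

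Atf6 and its targets in the endoplasmic reticulum were read because intracellular Thbs4 is known to act through Atf6. All 15 genes were tested, and 13 were higher in podocyte RNA and 0 lower (median 1.18), against 51.6% and 27.6% of all genes. Pdia4, a disulfide isomerase, was higher by 1.99 ± 0.20 (adjusted p = 3.7e-07), the chaperone Hyou1 by 1.85 ± 0.16 (adjusted p = 9.4e-08) and the isomerase Pdia6 by 1.66 ± 0.16 (adjusted p = 2.5e-07). Atf6 itself was higher by 1.38 ± 0.12 (adjusted p = 7.9e-08). Creld2, an Atf6 target, was higher by 0.87 ± 0.30 (adjusted p = 0.017). That call was lost under quantile normalization (0.54), under normexp with quantile scaling (0.55) and without 2 single arrays. It was also lost in a fit of only the groups compared (adjusted p = 0.0544).

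After LMB2, 5 and then 14 of these genes fell. At day 4, 0 of the 15 rose and 5 fell (median -0.52, all genes -0.14), against 12.1% of all genes called higher and 21.7% lower. Pdia4 differed by -1.02 ± 0.20 (adjusted p = 0.0013), Atf6 by -0.72 ± 0.12 (adjusted p = 0.0003) and Dnajb11, a co-chaperone, by -0.65 ± 0.17 (adjusted p = 0.011). At day 7, 0 rose and 14 of 15 fell (median -0.91), against 22% of all genes called higher and 36.3% lower. The podocyte markers, all 12 of which were higher in podocyte than in glomerular RNA (median 2.31), moved the same way after LMB2. At day 4, 1 was called higher and 5 lower (median -0.32), and at day 7, 0 higher and 9 lower (median -0.92), and their part in the fall of the Atf6 list was not tested. Pdia4 was lower, at -2.19 ± 0.20 (adjusted p = 5.1e-07), Sdf2l1, a chaperone partner, by -1.58 ± 0.35 (adjusted p = 0.0015) and Hsp90b1, the chaperone Grp94, by -1.12 ± 0.20 (adjusted p = 0.00028). Atf6 was lower, at -0.94 ± 0.12 (adjusted p = 1e-05). Creld2 was at -0.69 ± 0.30 at day 4 (adjusted p = 0.092) and -0.83 ± 0.30 at day 7 (adjusted p = 0.029). The day 7 call was lost in 5 of 8 fits that left out 1 array and with the replicate block (adjusted p = 0.075). Between 13 and 14 of the 15 genes fell at day 7 under 5 other scalings or background corrections, and between 11 and 15 when 1 array was left out. Among the 5 was the authors' table of values, which nearly repeats the scaling used here.

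Cartilage and tendon genes are those with which Comp and Thbs4 are usually found. Of 19 listed, 13 passed the filter, with 4 higher and 7 lower in podocyte RNA (median -0.94). Scx, the tendon transcription factor scleraxis, was higher by 2.61 ± 0.26 (adjusted p = 4.8e-07), as Comp was. Mkx, the tendon factor Mohawk, was at least 8.20-fold lower (adjusted p = 2.4e-10), above background on all glomerular and no podocyte arrays, and Col5a1, a fibrillar collagen chain, was lower, at -3.57 ± 0.45 (adjusted p = 4.3e-06). Under alternatives the log2 difference of Mkx was as small as -1.16, less than its bound. At day 4, 3 rose and 2 fell (median 0.13), with Matn2, a matrilin, at 1.63 ± 0.28 (adjusted p = 0.00054) and Acan, the cartilage proteoglycan aggrecan, at -0.87 ± 0.19 (adjusted p = 0.003), which normexp reduced to -0.12, not called. Mkx was also called (adjusted p = 0.047) but was above background on 0 arrays of either group. At day 7, 2 rose and 3 fell (median 0.18). Col1a1, a chain of type I collagen, rose by 3.03 ± 0.31 (adjusted p = 1.7e-06) and Matn2 by 1.55 ± 0.28 (adjusted p = 0.00027), and Scx fell with Comp (-2.16 ± 0.26, adjusted p = 8.6e-06).

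**Figure D3:**
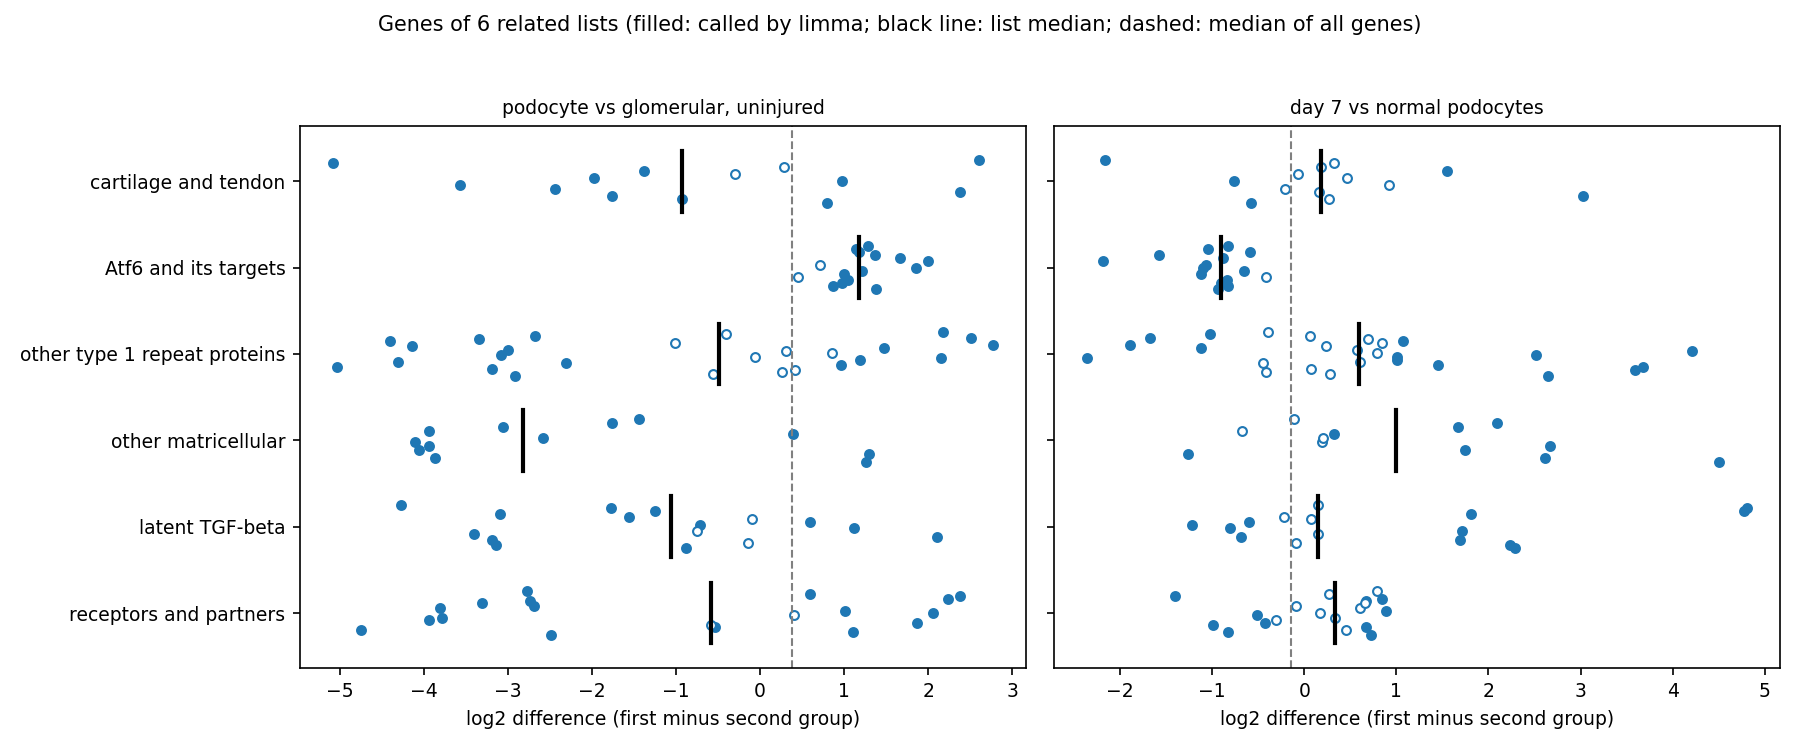
Log2 differences of the genes of 6 lists related to thrombospondins, for podocyte against glomerular RNA and for day 7 against normal podocytes; filled points were called by limma, black lines are list medians and dashed lines the median of all genes (0.38 and -0.14). The Atf6 list had a median of 1.18 in the first comparison and -0.91 in the second, with 13 genes higher and then 14 lower.

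The genes whose pattern over the 16 arrays was most like each member were found by Pearson correlation, as a description only, since the arrays fall into 4 groups that share most of the variation. Nearest to Comp were Ephx1, an epoxide hydrolase, Mpp5, a scaffold of epithelial polarity, and Sema5a, a semaphorin with type 1 repeats (all r = 0.99). Like Comp, Sema5a ran from 6.68 in normal podocytes to 6.48 at day 4 and 5.56 at day 7, with 5.21 in glomeruli. Nearest to Thbs1 were Nol11, a factor of ribosome assembly, Alg6, a glucosyltransferase of protein glycosylation, and Samd5 (all r = 0.99). Nearest to Thbs4 were Apol7c, a member of the apolipoprotein L family, Aloxe3, a lipoxygenase of skin, and the cytokine gene Il31 (all r = 0.99). Aloxe3 had group means of -4.47 in normal podocytes, -4.46 in glomeruli, 3.49 at day 4 and 4.24 at day 7.

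For the dim members the nearest genes were P2ry1, an ADP receptor, Metrn and Mrvi1 for Thbs2 (all r = 0.98), and Lzts1, Spats2 and the transcription factor Ets1 for Thbs3 (r = 0.93, 0.90 and 0.90). P2ry1 had means of 3.68 in glomeruli, -0.25 in normal podocytes, -1.34 at day 4 and -1.41 at day 7. Ets1 ran at 3.60, 2.55, 2.70 and 3.31 in the same order.

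**Figure D4:**
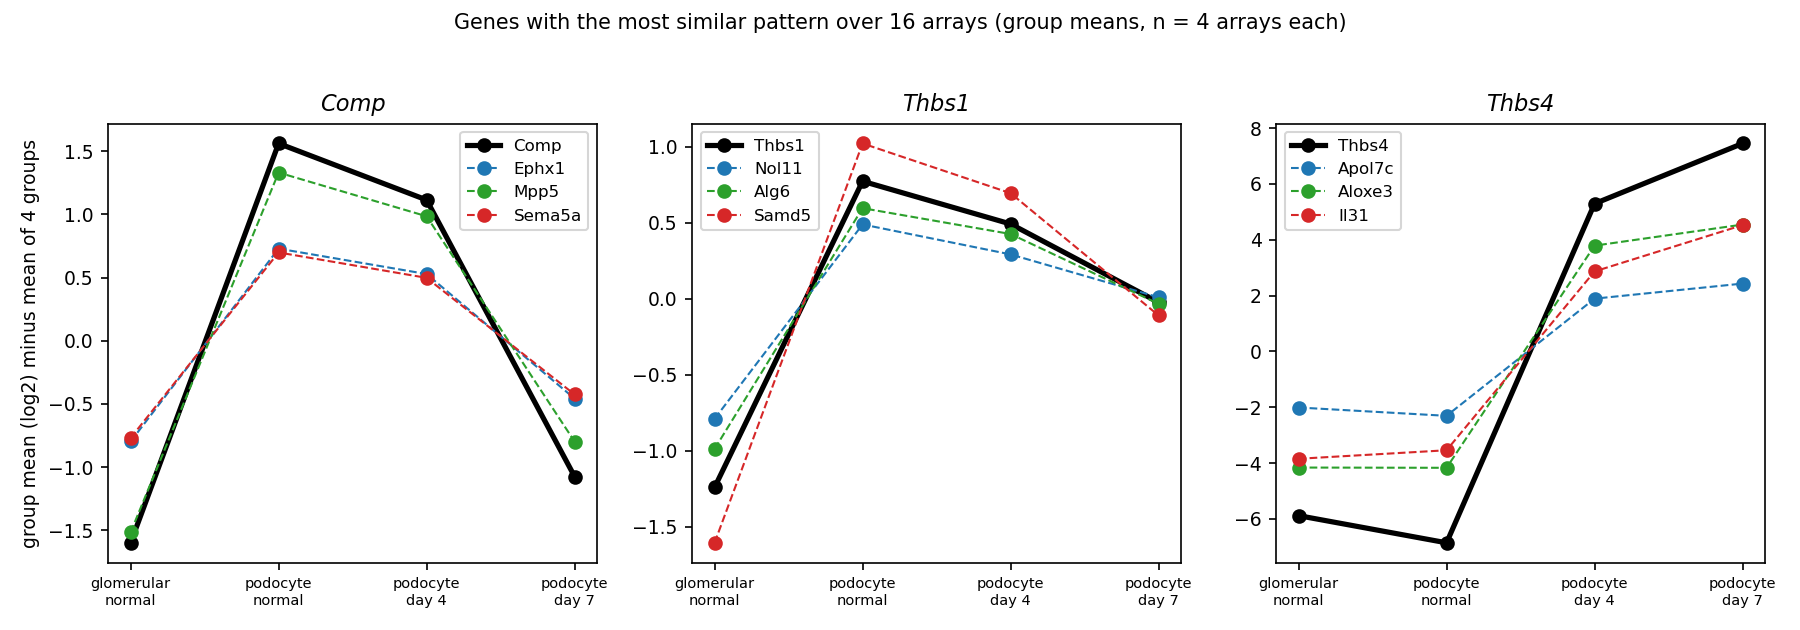
Group means of Comp, Thbs1 and Thbs4 (solid) and of the 3 genes most correlated with each over 16 arrays (dashed), each centred on its own mean over the 4 groups, on a log2 scale. Comp and its neighbours were highest in normal podocytes and lower by day 7, and Thbs4 and its neighbours were low in both uninjured groups and high at day 4 and day 7.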

How the data were processed

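Per the file headers, the arrays were 1-colour Agilent designs read with Feature Extraction 11.5.1.1 (also in the submitters' processing notes). The deposited intensity of each spot is its processed signal, background-subtracted on a linear scale by that program and not normalized between arrays. The authors also deposited a table of log2 values for 39430 probes, each column an exact shift of 1 array's log2 intensity with the normalization not given in the sources used here. Of its 16 columns, 6 matched another replicate of the same group, so scanner files were used, and column medians ran from -3.17 to -2.51.

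Control and outlying spots were left out and spots of a probe averaged. Each array's log2 75th percentile was subtracted, and probes were named through unversioned accessions and RefSeq (26576 with 1 symbol). A gene was its kept probe with the highest mean (19055 kept). limma 3.58.1 in R 4.3.3 (lmFit, eBayes, group as the only term, 16 arrays, 12 residual degrees of freedom) gave the tests, 2-sided, and was tested on simulated data. Python 3.11.15 read the files. A bound for a probe dim on a whole group was computed from the higher of its own value and the lowest value well above background on each dim array. Such a bound belongs to the scaling used, and alternatives can give a smaller difference. No bound is given for Thbs2 or Hrg, whose differences were not called or lost their call. The number of arrays limits precision.

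Named beside the members were the up to 3 called genes with the largest change per list in the podocyte against glomerular, day 4 and day 7 comparisons, 9 further genes whatever their values (Cd47, Cd36, Itgav, Itgb3, Calr, Cacna2d1, Tgfb1, Atf6, Creld2), and the 3 most correlated genes of each member. The members and lists were chosen with earlier results of these data known, and 1 listed gene is not reported here. Same-numbered podocyte and glomerular arrays of uninjured mice deviated together (r of 0.42 to 0.51 over genes, each array best with its own number), so these numbers pair the samples. The labels do not say what they share, and the main fit, with group as its only term, did not use this pairing. Alternatives covered scaling, background correction, filters, probes, the authors' table, samples, the replicate block and each array left out.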

Additional observations from a re-analysis of the deposited data

Results flagged for a closer look

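An array stood apart from the other 3 of its group by Dixon's criterion for 12 of 200 gene and group sets, where chance alone flags about 1 in 20. Among the members this was Thbs3 at day 4 replicate 3 (-2.66). The rest were Ccn1 (2.74), Col1a1 (-1.37) and Sirpa (4.65) in glomerular replicate 3, Ccn4 in normal podocyte replicate 3 (-3.06), Cd36 in normal podocyte replicate 2 (-2.88), Fbln5 (0.69) and Spon2 (0.81) in day 4 replicate 1, Col5a1 (-3.85) and Hsp90b1 (5.91) in day 7 replicate 1, Ltbp2 in day 7 replicate 3 (-3.02) and Matn2 in day 7 replicate 4 (-2.47). Values are levels, in log2 over the array's 75th percentile.

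For 26 of 49 genes tested, the effect of LMB2 differed between day 7 and day 4 by limma's test of that difference, among them 3 members, Thbs1 (-0.52), Thbs3 (0.98) and Comp (-2.19), given as day 7 minus day 4 on the log2 scale. Over all genes 32.6% were called in this comparison, and the named genes were mostly chosen for a called change, so their share is no result about them. Of the TGF-beta list, Tgfb3 (4.46), Tgfb2 (3.24), Ccn2 (2.19) and Tgfb1 (1.86) were higher at day 7. Higher too were Ccn4 (2.57), Fbln5 (2.12), Ccn1 (2.06) and Fbln2 (1.46) among matricellular genes, and Adamts7 (3.51), Rspo2 (2.67) and Adamts4 (2.45) among genes with type 1 repeats. Col1a1 (2.90), Itgb3 (1.99), Cacna2d1 (1.54), Itgb1 (0.93) and Cd47 (0.88) were also higher. Lower at day 7 were Spon2 (-2.06), Scx (-1.54), Sirpa (-1.24), Pdia4 (-1.16), Sdf2l1 (-1.03), Hyou1 (-0.68) and Hsp90b1 (-0.64).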

How the results depend on the processing

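Of 305 values of tested member differences under alternatives, 277 kept direction and side of the threshold, among them every one for Comp and Thbs1 in podocyte against glomerular RNA and at day 7. Of 51 values for the untested differences of Thbs4, 47 moved by less than 1 SD between replicates. Many of these values could hardly move. The authors' table nearly repeated the scaling used here, and the mean of a gene's probes is its only probe, except for Thbs3. Filters, fits of only the groups compared and the replicate block left these differences as they were and changed only their error and p. The counts therefore overstate how independent the alternatives were. Leaving out 1 array at a time gave Thbs1 at day 7 against day 4 between -0.55 and -0.45, Thbs2 between -1.79 and -1.12 at day 4 and between -1.29 and -0.36 at day 7, Thbs3 between -0.03 and 0.52 at day 4 and between 0.81 and 1.36 at day 7 against day 4, Thbs4 in podocyte against glomerular RNA between -1.30 and -0.59, and Comp at day 4 between -0.55 and -0.35. Quantile normalization gave -0.44 for Thbs1 at day 7 against day 4, -1.76 for Thbs2 at day 4 and -0.32 for Comp at day 4. With medians set to 0, Comp at day 4 was -0.37 and Thbs4 in podocyte against glomerular RNA -1.05. Fits of only the groups compared gave -1.40 for Thbs2 at day 4 (adjusted p = 0.0406), 0.98 for Thbs3 at day 7 against day 4 and -0.45 for Comp at day 4. Normexp with the 75th percentile or quantile scaling gave 7.49 and 7.38 for Thbs4 at day 4, 9.67 and 9.50 at day 7, 0.28 and 0.24 for Thbs3 at day 7 against day 4, -0.05 and -0.27 for Thbs2 at day 4, and with the 75th percentile 0.15 for Thbs2 at day 7. It raises dim signals by its offset of 50. Small differences that were not called, or lost their call, turned sign: Hrg at day 7 (0.03 with normexp), Cd36 at day 4 (-0.02 and -0.01 with quantile scaling, and, without 1 array, -0.00 to 0.29, the lowest without day 4 replicate 1), Itgb3 at day 7 (without 1 array -0.01 to 1.01, the lowest without day 7 replicate 1) and Tgfb1 at day 4 (0.03 with medians set to 0, 0.02 with normexp, and without 1 array -0.09 to 0.01, the highest without day 4 replicate 2). Other causes were not tested.

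The replicate block left the podocyte against glomerular calls of members as they were. In that comparison it raised the genes called from 11533 to 12121. Of the Atf6 list it called 15 higher rather than 13, and of the genes with type 1 repeats 9 higher rather than 7. After LMB2 same-numbered arrays share only a number, with r from -0.41 to 0.49. There the block reduced the genes called from 4914 to 2441 at day 4 and from 4756 to 2686 between days, and gave -0.45 for Comp at day 4 (adjusted p = 0.131) and 0.98 for Thbs3 at day 7 against day 4 (adjusted p = 0.134). A slide block was not run, because slide and injury coincide and the other comparisons lie within a slide. With probes above background on all 16 arrays only, Thbs2, Thbs3 and Thbs4 gave no value. Dim signal limits what can be said of these 3 genes in normal podocytes.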
